A study of Homo sapiens with 2 samples.

Results

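Striatins are scaffold proteins that bind the phosphatase PP2A, and the mRNAs described here encode all members of that family together with the PP2A core and a few partners of the same complex. The 9 genes were taken by symbol from the 14914 features of a table of RNA recovered with CSTF2. They are STRN, STRN3 and STRN4 (striatins), PPP2R1A, PPP2CA and PPP2CB (PP2A scaffold and catalytic subunits), and MOB4, STK24 and PDCD10 (partners). STRN4 was chosen because it stood very high in the immunoprecipitate and the others were set beside it for contrast, so the values below are a description and no test is attached to them. The study measured RNA in HUH7 cells, a human cell line that comes from a hepatocellular carcinoma, as 1 library of RNA recovered with CSTF2 (IP) and 1 library of input RNA (Input). Neither group carries a genetic change or treatment in the labels, and the antibody is not named there. CSTF2 is taken from the series title, and a mock precipitation was not analysed here. CSTF2 (CstF-64) contacts the pre-mRNA within the cleavage stimulation factor, a complex that helps to form the 3' ends of mRNAs. A single library in each group leaves no replicate error to set a difference against, and all intervals cover counting error only.

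PP2A is a serine/threonine phosphatase built from a scaffold, a catalytic and an exchangeable regulatory subunit. Striatins act as such regulatory subunits, and they also assemble the STRIPAK complex, in which PP2A sits beside kinases of the GCKIII family (STK24, STK25 and STK26), the adaptor PDCD10 that holds those kinases, and the small protein MOB4. STRIPAK is known for restraining the Hippo kinases. CSTF2 is known to bind letters rich in G and U after the cleavage site of a pre-mRNA, downstream of the poly(A) signal AATAAA or its common variant ATTAAA.

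The 3' ends of the striatin mRNAs are shown because that is where the cleavage machinery works and where the 3 paralogs can be compared. Each line gives the final 30 bases of the principal GENCODE v29 transcript on GRCh38, 5' to 3', with the poly(A) signal in capitals. All lie on the minus strand, STRN4 at chr19:46719507-46719536, STRN at chr2:36843640-36843669, STRN3 at chr14:30893799-30893828 and PPP2CA at chr5:134194334-134194363.
STRN4: ttgtctcAATAAAccctttggagtaagatg
STRN: cagagaAATAAAaggatattagacaaagta
STRN3: ctccataATTAAActaggaaatggagattt
PPP2CA: agctattttgcATTAAAgccttcgtcctca
STRN4 and STRN end with AATAAA, which lies 17 and 18 bases before the annotated end. STRN3 and PPP2CA carry ATTAAA instead, 17 and 13 bases before it. AATAAA was also found in the last 40 bases of STK24, PDCD10 and PPP2CB, whereas PPP2R1A and MOB4 held neither hexamer there. Of 7595 protein-coding features with a transcript to compare, 62.8% had AATAAA in that window, 14.2% had only ATTAAA and 23.0% had neither. STRN4 therefore shares its signal with most transcripts. These are matches on the transcript strand only, and the bases after the cleavage site were not analysed here.

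STRN4, the gene of the striatin also called zinedin, stood far above its paralogs in the IP. It lies on chromosome 19 from 46719507 to 46746994 (minus strand, protein-coding, 7641 bases of exon). STRN4 yielded 5655 IP reads, or 229.8 RPKM (224 to 236), against 812 Input reads, or 11.2 RPKM (10.41 to 11.96). The read numbers were recovered from the deposited values. RPKM divides the reads by the exon length and by the depth of the library, so it allows levels to be compared between genes. The RPKM ratio of IP over Input was 20.6 (95% interval 19.1 to 22.2). On the scale of log2((IP + 1)/(Input + 1)), which is used for all log2 ratios here, it was 4.25, or 4.07 above the median of all features, which was 0.17. Of the 9880 features that passed a filter on the mean (1 RPKM or more), 5 had a higher log2 ratio. By level among 11468 nuclear protein-coding genes, STRN4 was at rank 31 in the IP and at rank 1192 in the Input.

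STRN, which encodes the founding striatin, was far scarcer. It lies on chromosome 2 from 36843640 to 36966472 and yielded 63 IP reads, or 2.34 RPKM (1.80 to 3.0), against 121 Input reads, or 1.52 RPKM (1.26 to 1.82). Its ratio was 1.54 (1.12 to 2.10) and its log2 ratio 0.41. STRN3, the gene of the striatin also called SG2NA, lies on chromosome 14 from 30893799 to 31026401. It yielded 745 IP reads, or 46.6 RPKM (43.3 to 50.1), against 1427 Input reads, or 30.2 RPKM (28.7 to 31.8). Its ratio of 1.54 (1.41 to 1.69) was almost that of STRN, although its level was 19.9 times that of STRN with CSTF2 and 19.8 times in the Input. The ratio of STRN3 divided by that of STRN was 1.003 (0.723 to 1.40).

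The order of the striatins by level was therefore different in the libraries. In the IP, STRN4 was 4.93 times as high as STRN3 in RPKM, while in the Input it was 0.370 times as high. STRN4 made up 82.4% of the summed RPKM of the 3 striatins in the IP and 26.03% in the Input. STRN3 made up 16.7% of that sum in the IP and 70.4% in the Input. Counted in reads, STRN4 held 87.5% of the striatin reads from the IP (Wilson 95% interval 86.7 to 88.3) and 34.4% of those from the Input (32.5 to 36.3). The ratio of STRN4 was 13.3 times that of STRN3 (11.9 to 14.99) and 13.4 times that of STRN (9.69 to 18.6). The intervals of STRN and STRN3 overlap, and that of STRN4, the member chosen for its value, lies above both. With the length of 1 principal transcript in place of all exon bases, STRN4 was 9.39 times as high as STRN3 in RPKM in the IP and 0.704 times in the Input, and its share of the striatin sum was 90.02% in the IP and 40.3% in the Input.

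**Figure D1:**
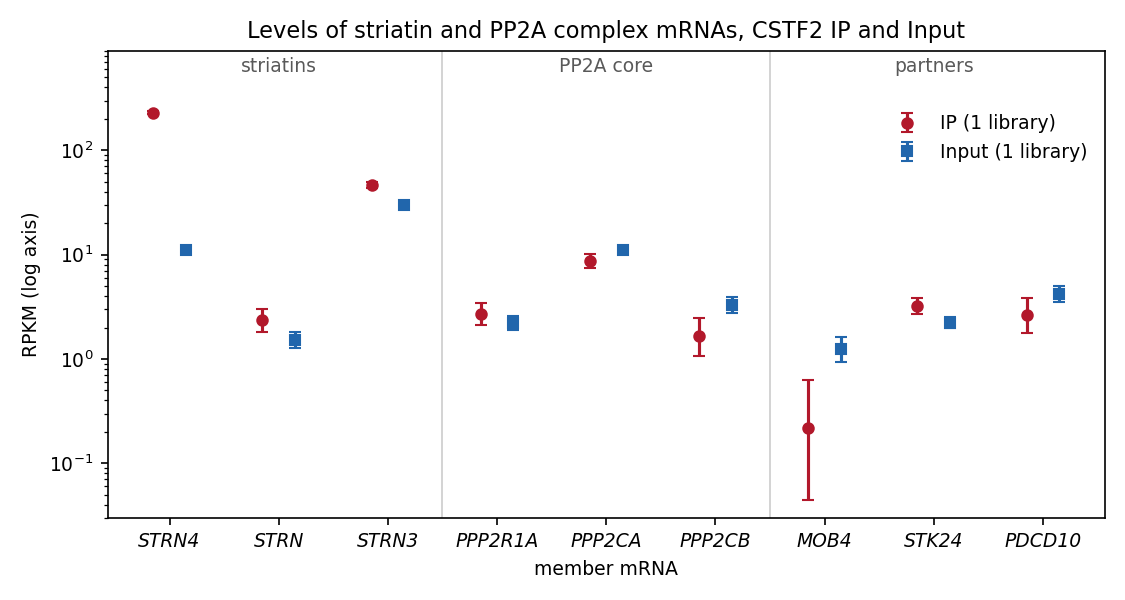
RPKM (log axis) of the 9 mRNAs in the IP (circles, left of each pair) and in the Input (squares, right), 1 library each, with exact Poisson 95% intervals for counting error. STRN4 reaches 229.8 RPKM with CSTF2 and 11.2 RPKM in the Input, while the other members differ far less between the libraries.

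The mRNAs of the PP2A core stayed close to the bulk of features. PPP2R1A, the main scaffold subunit, on chromosome 19 from 52190039 to 52229533, yielded 65 IP reads, or 2.71 RPKM (2.09 to 3.46), against 158 Input reads, or 2.23 RPKM (1.90 to 2.61). Its ratio of 1.22 (0.897 to 1.63) had an interval that includes 1. Its log2 ratio of 0.20 was 0.03 above the median of all features and became -0.04 with trimmed mean scaling. PPP2CA, the more abundant catalytic subunit gene, on chromosome 5 from 134194334 to 134226142, yielded 159 IP reads, or 8.72 RPKM (7.42 to 10.2), against 591 Input reads, or 11.0 RPKM (10.1 to 11.9). Its ratio was 0.795 (0.663 to 0.949).

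PPP2CB encodes the other catalytic subunit and lies on chromosome 8 from 30774457 to 30814314. It yielded 24 IP reads, or 1.65 RPKM (1.06 to 2.46), against 142 Input reads, or 3.30 RPKM (2.78 to 3.89). Its ratio was 0.500 (0.310 to 0.774), the lowest among the members past the filter. This plain ratio just reached 2-fold, whereas its log2 ratio of -0.70, with 1 RPKM added, was short of it. PPP2CA exceeded PPP2CB in level by 5.29 times in the IP and 3.32 times in the Input, or by 2.86 and 1.796 times with the length of 1 principal transcript. The ratio of PPP2CA divided by that of PPP2CB was 1.59 (0.987 to 2.66), so the catalytic subunits were not told apart at this depth. STRN4 and PPP2CA had nearly equal levels in the Input, where STRN4 was 1.02 times as high, yet in the IP STRN4 was 26.3 times as high (51.5 times by transcript length).

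The partners divided by direction, and none of the 3 reached 2-fold on the log2 scale with 1 RPKM added, although MOB4 did so by its plain RPKM ratio. STK24, also called MST3, is a GCKIII kinase. Its gene lies on chromosome 13 from 98445185 to 98577940 and yielded 126 IP reads, or 3.24 RPKM (2.70 to 3.86), against 257 Input reads, or 2.24 RPKM (1.97 to 2.53). The ratio was 1.45 (1.16 to 1.80). PDCD10, also called CCM3, is mutated in familial cerebral cavernous malformations. It lies on chromosome 3 from 167683298 to 167734939 and yielded 28 IP reads, or 2.66 RPKM (1.76 to 3.84), against 130 Input reads, or 4.17 RPKM (3.48 to 4.95). Its ratio was 0.637 (0.407 to 0.964).

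MOB4, the striatin-binding protein also called phocein, was the scarcest member. It lies on chromosome 2 from 197515571 to 197553699 and yielded 3 IP reads, or 0.217 RPKM (0.0447 to 0.634), against 51 Input reads, or 1.247 RPKM (0.929 to 1.64). Its ratio was 0.174 with an interval of 0.0347 to 0.538. The mean of 0.732 RPKM was under the filter of 1 RPKM, so MOB4 is left out of the counts. The readthrough feature HSPE1-MOB4 shares 698 exon bases with it and yielded 238 IP reads and 1337 Input reads. HSPE1-MOB4 had a ratio of 0.526 (0.456 to 0.604).

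Of the 8 members past the filter, 1 exceeded 2-fold in favour of the IP (STRN4) and 0 in favour of the Input. Counts of this kind use the log2 scale with 1 RPKM added unless another setting is named. On that scale PPP2CB, with a plain ratio of 0.500, was short of 2-fold. Among all 9880 features past the filter, 9.88% passed 2-fold upward and 6.83% downward. After centring on the median, 684 features were higher and 944 lower, against 976 and 675 before it. Nothing is read from the members' count, since STRN4 was chosen on this contrast. In order of IP level, STRN4, STRN3 and PPP2CA had intervals apart from each other. STK24, PPP2R1A, PDCD10, STRN and PPP2CB followed, each overlapping the next, and MOB4 came last. In the Input, STRN3 led, STRN4 and PPP2CA overlapped, and so did PDCD10 and PPP2CB, STK24 and PPP2R1A, and STRN and MOB4. The tie of STRN4 and PPP2CA rests on the exon length used: with the length of 1 principal transcript (3210 bases for STRN4 and 4649 for PPP2CA), STRN4 was 1.99 times as high in the Input.

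**Figure D2:**
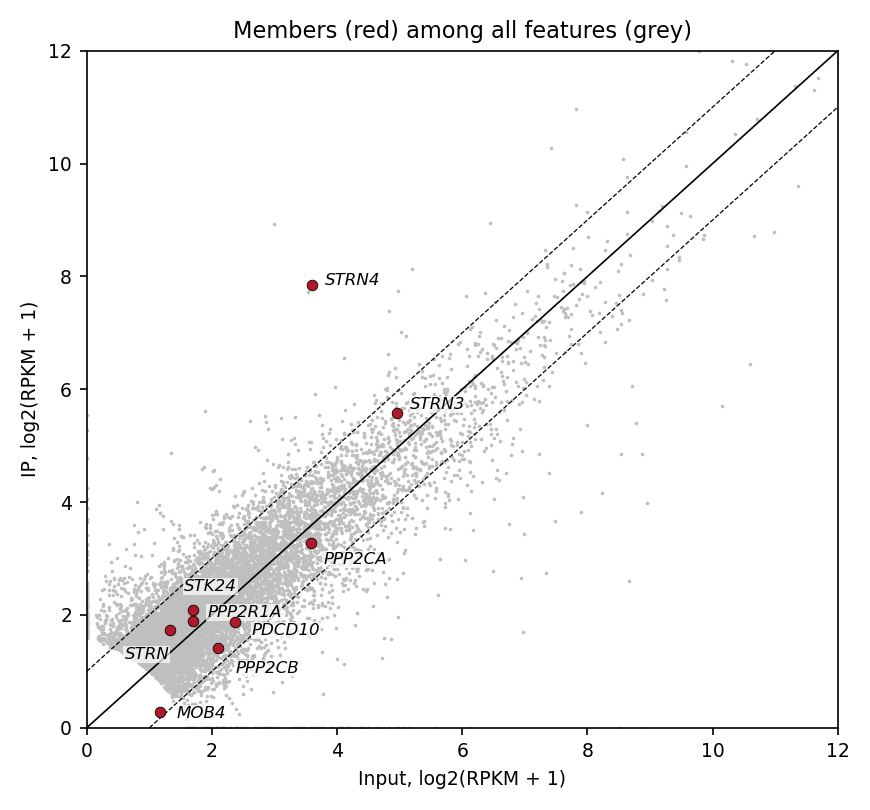
Level in the IP (vertical) against level in the Input (horizontal), as log2(RPKM + 1), for features past the 1 RPKM filter (grey) and the 9 members (red, with MOB4 shown although its mean is lower). The solid line marks equal levels, the dashed lines mark 2-fold, and 27 features above 12 on either axis are outside the plot. STRN4 lies far above the 2-fold line and every other member lies between the dashed lines.

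Nuclear protein-coding genes at the Input level of STRN4 stood well below it in the IP. The 244 other nuclear protein-coding genes within 10% of its Input RPKM (10.05 to 12.3 RPKM) had IP levels between 2.21 and 45.7 RPKM, with a median of 10.03 RPKM. The highest of them was CDC20, an activator of the anaphase-promoting complex, and STRN4 exceeded it 5.03 times in RPKM. STRN4 was chosen for its height in the IP, so this gap is a description and not a test. The band also rests on all exon bases. By the length of 1 principal transcript, the Input level of STRN4 was 26.6 RPKM. Nuclear protein-coding genes with an exon length within 1.2-fold of that of STRN4 had a median log2 ratio of 0.30 (n = 1446), and their 5th and 95th percentiles were -0.58 and 1.07. For genes of like GC content, within 2.5 percentage points, the median was 0.41 and those percentiles were -0.92 and 1.27 (n = 756). The features nearest to STRN4 in log2 ratio, by absolute difference, among features averaging 5 RPKM or more other than small RNAs, pseudogenes and clone-named ones, were PCNT, MT-ND6 and HSPA9. PCNT, for the centrosomal scaffold pericentrin, differed by 0.72 from STRN4. The mitochondrially encoded MT-ND6 differed by 0.84, and HSPA9, for a mitochondrial chaperone, by 1.31. Each of these 3 was lower than STRN4.

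The other members lay within the spread of genes of like length. STRN at 0.41 stood beside a median of 0.34 for genes of its length, STRN3 at 0.61 beside 0.16, and STK24 at 0.39 beside 0.49. PPP2CA at -0.30 stood beside 0.20, PPP2CB at -0.70 beside 0.13 and PDCD10 at -0.50 beside 0.003. All these log2 ratios were between the 5th and 95th percentiles of their length group, and so was PPP2R1A at 0.20 beside 0.29. MOB4 at -0.89 was just under the 5th percentile of its group, which was -0.84.

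The transcripts of the members differ in letters that bear on what CSTF2 is known to bind. The word TGTGT, read on the transcript strand with overlapping matches counted, served as a simple measure of GU-rich sequence. STRN4 had 1 such word in its 901-base 3' UTR, or 1.11 per kilobase, against a median of 1.70 per kilobase over the compared transcripts. STRN had 32 in 5819 bases, 5.499 per kilobase, and STRN3 had 5 in 1615 bases, 3.10 per kilobase. STK24 had 35 in 7991 bases, 4.38 per kilobase. The remaining members ran from 1.59 in PPP2CB to 2.96 in PDCD10. At least 1 TGTGT was present in the 3' UTR of 72.0% of the 7595 transcripts. STRN4 thus had the lowest density of this word among the 9 members, on 1 word. Its density was still above that of 37.1% of the compared transcripts. The word was counted before the cleavage site, and the bases after it, where CSTF2 is known to bind, were not analysed.

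GC content set STRN4 further from the bulk of transcripts than the density of TGTGT did. The STRN4 transcript was 63.2% G and C, above 93.2% of the compared transcripts, whose median was 48.4%. STRN at 37.8% and STRN3 at 40.7% were below the median, as were PDCD10 at 36.2%, MOB4 at 36.8% and PPP2CA at 41.3%. STK24 at 50.8% and PPP2R1A at 53.7% were above it. Whether letters or length play a part in the ratios was not tested.

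**Figure D3:**
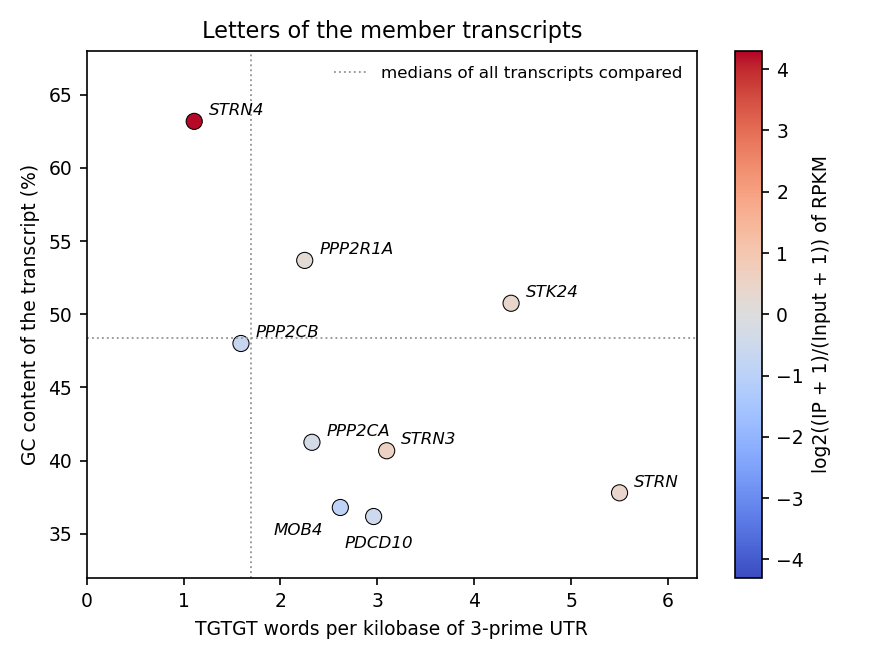
GC content of the principal transcript (vertical, %) against the number of TGTGT words per kilobase of its 3' UTR (horizontal) for the 9 members, coloured by log2 ratio of IP over Input, with dotted lines at the medians of 7595 protein-coding transcripts. STRN4 is at the upper left, with 63.2% GC and 1.11 words per kilobase.

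Neighbours of STRN4 on chromosome 19 did not have ratios of its size. On the one side lies PRKD2, for a protein kinase D, with 51 IP reads, 75 Input reads and a ratio of 2.01 (1.38 to 2.91). On the other side lies SLC1A5, for a glutamine transporter, with 297 and 846 reads in the same order and a ratio of 1.04 (0.906 to 1.19).

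Sequence shared with similar or overlapping genes differs in extent between the members. Of the distinct runs of 50 bases in all annotated STRN4 transcripts, 0.0977% also occur in transcripts of another gene, and none occur in another member. The share was 0.196% for STRN3, 1.04% for STRN and 1.56% for PPP2CB. It was 7.82% for PPP2CA and 15.7% for MOB4, where overlapping transcripts supply most of it. The reads of HSPE1-MOB4 outnumber those of MOB4 in both libraries, so MOB4 is hard to separate from it. In STK24, 7634 of 12077 exon bases overlap FARP1 on the opposite strand. FARP1, for a guanine nucleotide exchange factor, yielded 158 IP reads and 259 Input reads, close to the 126 and 257 of STK24. STRN3 shares 153 bases with COCH, which yielded 184 IP reads and 518 Input reads. PPP2CA shares 93 bases with MIR3661, which had 39 and 119. Whether the libraries kept strand is not stated in the protocols, and opposite-strand genes cannot be told apart where they overlap.

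The other STRIPAK subunits were mostly near the median of all features. Of 13 genes in this list, 12 had a row in the table used here and 10 passed the filter, with 1 past 2-fold upward, 0 downward and a median log2 ratio of 0.09. MINK1, a kinase of the MAP4K group, yielded 221 IP reads (8.78 RPKM) against 229 Input reads (3.08 RPKM), for a ratio of 2.85 (2.36 to 3.45). Its relative MAP4K4 reached 44.5 RPKM with CSTF2 and 23.95 RPKM in the Input, for a ratio of 1.86 (1.75 to 1.98). On the log2 scale the lowest were FGFR1OP2 at -0.37 and SIKE1 at -0.30, with plain ratios of 0.728 (0.545 to 0.960) and 0.764 (0.566 to 1.02). The other GCKIII kinases, STK25 at 0.937 (0.707 to 1.23) and STK26 at 0.755 (0.461 to 1.19) in ratio, had intervals that overlap that of STK24.

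Alternative PP2A subunits gave no gene past 2-fold on the log2 scale with 1 RPKM added. Of 13 scaffold and regulatory subunits, 9 passed the filter with a median log2 ratio of 0.09. They ran from PPP2R5E at a ratio of 0.610 (0.406 to 0.891) and PPP2R2A at 0.843 (0.678 to 1.04) to PPP2R1B, the second scaffold gene, at 1.43 (0.968 to 2.08) and PPP2R5B at 2.22 (1.13 to 4.26). PPP2R5B rested on 18 IP reads and 24 Input reads. The 9 catalytic subunits of related phosphatases had a median log2 ratio of -0.41, and none was past 2-fold on that scale. PPP1CC was lowest at 0.360 (0.215 to 0.575) by ratio, followed by PPP1CB at 0.541 (0.443 to 0.654). PPP5C at 1.55 (1.29 to 1.85) and PPP3CA at 1.197 (0.768 to 1.83) were highest.

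Among 14 modifiers and inhibitors of PP2A, 0 exceeded 2-fold upward and 1 downward on the log2 scale with 1 RPKM added. Their median log2 ratio was -0.10. BOD1, which inhibits PP2A at kinetochores, yielded 38 IP reads (5.85 RPKM) against 366 Input reads (19.1 RPKM), for a ratio of 0.307 (0.214 to 0.429). The mitotic inhibitor ENSA had a ratio of 0.582 (0.456 to 0.735). ANKLE2 at 2.63 (2.04 to 3.38) and IGBP1, which binds free catalytic subunits, at 1.33 (0.976 to 1.80) were highest on the log2 scale. ANKLE2 was past 2-fold by its plain ratio but had a log2 ratio of 0.79. The Integrator subunits INTS6 and INTS8, which hold PP2A at transcribing polymerase, were under the filter.

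In pathways near STRIPAK, a few genes passed 2-fold. Of 16 Hippo pathway genes, 11 passed the filter, with 2 at least 2-fold higher and a median log2 ratio of 0.24. TEAD3, a transcription factor of the pathway, had a ratio of 3.33 (2.21 to 5.01), and WWC1, the upstream regulator KIBRA, 2.62 (2.31 to 2.96). The lowest were the coactivator YAP1 at 0.701 (0.486 to 0.989) and TEAD1 at 0.815 (0.580 to 1.13). Among 9 genes of the cerebral cavernous malformation complex and GCKIII targets, 6 passed the filter and 1 was past 2-fold, HEG1, the receptor that anchors that complex, at 2.23 (2.02 to 2.47). STK38 was at 1.89 (1.21 to 2.90), and STK38L at 0.639 (0.486 to 0.832) and CAB39 at 0.970 (0.769 to 1.21) were lowest. Over all these related lists, 4 of 59 genes past the filter exceeded 2-fold upward (6.78%) and 1 downward (1.69%), beside 9.88% and 6.83% of all features, and the highest log2 ratio was 1.29, against 4.25 for STRN4.

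**Figure D4:**
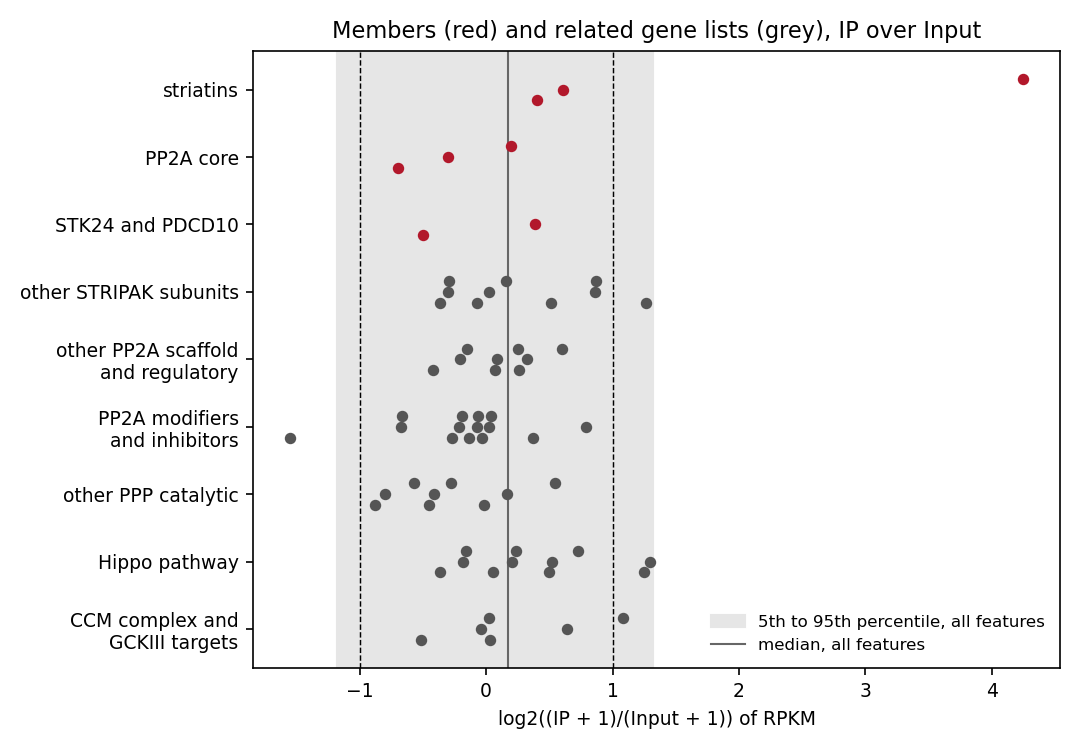
Log2 ratios of IP over Input for the members past the filter (red, upper 3 rows) and for the related gene lists (grey), 1 point per gene. The shaded band spans the 5th to 95th percentile of all 9880 features, the solid line is their median of 0.17 and the dashed lines mark 2-fold. STRN4 at 4.25 stands outside the band, and BOD1 at -1.55 is the only other point beyond it.

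The libraries carried the markers of the labelled liver cells. ALB stood at 200.3 RPKM in the IP, beside 254 RPKM in the Input, and all 8 liver genes examined passed the filter, with 0 past 2-fold upward and 1 downward, TTR, at a ratio of 0.336 (0.156 to 0.647). In log2 ratio, HNF4A (0.41) and FGB (0.18) were highest and APOA1 (-0.81) was next to TTR (-1.11). Of 9 markers of blood, stromal and endothelial cells, PTPRC, PECAM1, VWF, HBB and COL1A1 had no row in the table used here. The other 4 summed to 10.6 RPKM in each library, and CD68 was past 2-fold on 22 IP reads and 12 Input reads. The log2 ratios of the others were 0.23 for COL1A2, -0.42 for LUM and -0.58 for LYZ. By level these markers overlapped the liver genes. With CSTF2, LUM at 5.16 RPKM was above APOA1 (4.36) and TTR (1.43), and CD68 (3.12) and COL1A2 (1.61) were also above TTR. The Input level of LUM, 7.27 RPKM, was above those of HNF4A (4.80) and TTR (4.25). The remaining liver genes were higher than LUM in each case. The IP held 3220045 assigned reads and the Input 9517885, so a member with 24 or 28 IP reads is known far less precisely than STRN4. Mitochondrially encoded features took 61.8% of the IP reads and 61.6% of the Input reads.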

How the data were processed

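RNA immunoprecipitation sequencing was analysed in 1 IP and 1 Input library of HUH7 cells. The authors deposited 1 table whose name gives its unit as RPKM, with 1 column for each library and a column that its header calls a log fold change. That column was taken as log2, IP over Input, because the deposited values lie close to the log2 of the RPKM ratios. Per the submitters' processing notes, FastQC 0.12.0 and hg38 were used. Which aligner, counter and gene models were applied is not given in the sources used here. Per the labels' protocols, RNA was fragmented and copied from random hexamers. Whole reads, depths (3220045 and 9517885 reads) and exon lengths were recovered for 14913 of 14914 features by solving the deposited RPKM and log2 fold change together (tolerance 0.01 reads, mean prior of 0.125 reads), and the procedure was tested on simulated data. The other feature is no member here. Log2 ratios used a pseudocount of 1 RPKM, which understates changes of low features, and counts used features whose mean reached 1 RPKM. Ratios carry exact conditional (Clopper-Pearson) 95% intervals, levels exact Poisson intervals and shares Wilson intervals. These cover counting error only, and treat reads as independent. Amplified reads that carry no molecular identifiers do not count independent molecules, so the intervals may be too narrow. No test was possible. Coordinates, exons and sequences are those of GENCODE v29 on GRCh38. The principal transcript is the protein-coding one with the best APPRIS tag, the longest where tied. The members and lists were chosen with earlier results of these data known. Named genes are the members, the 2 highest and 2 lowest of each list by log2 ratio, those past 2-fold, overlapping and neighbouring genes, and the 3 features nearest to STRN4. STK25, STK26, CDC20, INTS6 and INTS8 were named outside this rule, after their values were seen. ALB and the clone-named features were also named outside it. Some overlaps are not reported here. Python 3.11.15, scipy 1.17.1 and pandas 2.3.3 were used.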

Additional observations from a re-analysis of the deposited data

How the results depend on the processing

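STRN4 was at least 2-fold higher under every setting tried, and its log2 ratio of 4.25 became 3.86 with a pseudocount of 5 RPKM, 4.07 centred on the median and 3.93 with trimmed mean scaling. Among the members past the filter, STRN4 was the 1 past 2-fold in all but one setting. At 1.5-fold, 2 of them were higher (STRN4 and STRN3) and 1 was lower (PPP2CB). With a filter of 5 RPKM, 3 members were left. MOB4 is left out of these counts by the filter, except where no filter was set. That setting kept all 9 members, and STRN4 was again the 1 past 2-fold. The log2 ratio of MOB4 was -2.09 with a pseudocount of 0.1 RPKM and -0.26 with one of 5 RPKM. It was -1.44 with a depth that leaves out mitochondrial features, -1.06 centred on the median and -1.01 with trimmed mean scaling. When mitochondrial features were left out of the depth, the filter stayed on the deposited RPKM values and kept 8 members. MOB4 was therefore not counted there, despite its log2 ratio of -1.44. Over all features, 976 exceeded 2-fold upward. Adding 0.1 RPKM to each value gave 1830 and adding 5 RPKM gave 186. The filter of 5 RPKM gave 327, trimmed mean scaling 609, a depth that leaves out mitochondrial features 1541, and a minimum of 20 reads 632. At 1.5-fold there were 2569, and at 4-fold 151. The number lower (675) became 1023 and 295 with those pseudocounts, 407 with that filter, 1117 with trimmed mean scaling, and 1484 and 149 at those folds. Among the related lists, the 4 higher genes became 7 with a pseudocount of 0.1 RPKM and 0 with one of 5 RPKM. The 1 lower gene became 2 with a pseudocount of 0.1 RPKM and 2 when centred. The pseudocount, filter, fold, centring and scaling settings act on the counts by construction. Leaving mitochondrial features out of the depth rescaled IP over Input by 0.008 in log2. It raised the RPKM values of both libraries, while the added 1 RPKM stayed the same. No other cause of these shifts was tested. The settings of 20 reads and of transcript length were chosen after seeing the data. The window of 60 bases after the annotated end was not run, since no genome sequence was used here. No paired analysis was possible because each group has 1 library. Depth limits PPP2CB, PDCD10 and MOB4 most, with 24, 28 and 3 reads in the IP.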

Other observations

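A feature named only by clone, CTB-174O21.2, had nearly the values of STRN4 and was named after its values were seen. It yielded 379 IP reads (209 RPKM) against 57 Input reads (10.7 RPKM), for a ratio of 19.7 (14.8 to 26.4) beside 20.6 for STRN4. Its recovered length of 562 bases equals the exon length of AC008635.1, an antisense gene within STRN4 on chromosome 19 from 46728603 to 46732700, of which 160 exon bases are also exon of STRN4 and 402 are not. The sources used here do not pair these names. A length of 562 bases is shared by 58 annotated genes and by 5 listed features with no matched name, so the identity was not established. Its reads come to 6.70% of those of STRN4 in the IP and 7.02% in the Input.

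PPP2CA has a similar pair of clone-named features, CTD-2410N18.5 and CTD-2410N18.4, with lengths of 483 and 1745 bases that equal those of the overlapping genes AC104109.3 and AC104109.4. CTD-2410N18.5 yielded 171 IP reads and 688 Input reads, more than the 159 and 591 of PPP2CA itself, with a ratio of 0.735 (0.618 to 0.870) beside 0.795 for PPP2CA. CTD-2410N18.4 had 16 and 82 reads. AC104109.3 shares 312 exon bases with PPP2CA. The names were again not paired by the sources used here, 52 and 7 annotated genes have these lengths, and 3 listed features with no matched name have 483 bases. For PPP2R1A, the clone-named CTB-96E2.7 has the 1121 bases of AC010320.2, an antisense gene that shares 710 exon bases with it, a length that 10 annotated genes and 3 such listed features have. CTB-96E2.7 yielded 46 IP reads and 32 Input reads, for a ratio of 4.25 (2.65 to 6.89), beside 65 and 158 for PPP2R1A. The other listed features of this length with no matched name had lower ratios. They were 1.02 (0.645 to 1.57), from 29 IP and 84 Input reads, and 2.46 (0.595 to 9.69), from 5 and 6. CTB-96E2.7 was thus the highest of those 3 in ratio, and which of them, if any, is AC010320.2 was not established.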
